A study of Homo sapiens with 12 samples.

Results

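Cytosolic ribosomal protein genes encode the protein part of the 60S and 40S ribosomal subunits. They were taken from the authors' deposited tables by symbol: RPL or RPS followed by a number and at most a short suffix, plus RPLP0, RPLP1, RPLP2 and RPSA. The rule left out 11 rows of RPS6K kinases and 292 pseudogene rows, and no RPS4Y row was present. It found 85 genes of 23375 in any table, of which 77 encode core ribosomal proteins (46 of the 60S and 31 of the 40S subunit). Another 7 are paralogs of core genes (RPL3L, RPL7L1, RPL10L, RPL22L1, RPL26L1, RPL39L and RPS27L), and the last, RPS10L, carries a gene ID that GENCODE 29 annotates as a processed pseudogene. The rule reads symbols only.

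Every ribosome needs each core protein once, or a few times in the case of the stalk proteins, and proliferating cells spend a large part of their transcription and translation on them. In vertebrates nearly all of their mRNAs start with a cytosine followed by an unbroken run of pyrimidines, the 5′ terminal oligopyrimidine (TOP) tract, through which mTOR signalling and the RNA-binding protein LARP1 control their translation and stability. Free RPL5 and RPL11, bound to 5S RNA, block the ubiquitin ligase MDM2 when ribosome assembly fails.

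The study sequenced the mRNA of a triple-negative breast cancer cell line, SUM159, in 12 libraries that make up 4 groups with 3 libraries each. The groups were shE4F1 cells treated with 140 nM gemcitabine for 24 h, shE4F1 cells left untreated, shCTRL cells given the same gemcitabine treatment, and shCTRL cells left untreated. shE4F1 is a hairpin RNA against E4F1, a zinc finger transcription factor first found as a regulator of the adenoviral E4 promoter, and shCTRL is a scrambled hairpin. Gemcitabine is a deoxycytidine analogue that stalls DNA replication. All 4 groups are 1 line with 1 labelled hairpin per arm, and nothing in the labels ties a group's libraries to separate cultures. The p-values therefore cover only the spread from library to library, which may be technical.

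The values are those of the authors' deposited tables: the mean normalized count over the libraries compared, the log2 fold change, its standard error (SE) and a p-value adjusted over all genes. A gene is said to have risen or fallen where that adjusted p was under 0.05. Values of single libraries were not used, because the names of the 12 count columns match no sample label; a group level is given instead as the level implied by a table's mean and fold change, scaled so that the normalized counts of all its genes sum to 1000000 (CPM). CPM levels set the totals of the 2 groups equal, whereas the log2 changes follow the authors' size factors, and the scalings part where the summed counts differ: by 0.09 on the log2 scale for the knockdown under gemcitabine, -0.23 for gemcitabine in shCTRL cells, -0.16 in shE4F1 cells and less than 0.01 for the knockdown untreated. Counts after subtracting this shift, an alternative added after seeing the data and called equal totals, are given where they change a result. In bulk RNA such a share cannot separate less ribosomal protein mRNA per cell from more of other RNA. Mesenchymal markers of the line were abundant, with VIM at 53240 to 70720 mean normalized counts across the tables. Of the luminal markers ESR1 stood at 4.95 to 13.1, and PGR and EPCAM were not listed, whereas ERBB2, KRT8 and KRT18 had means of 2330 or more. E4F1 itself was lower with shE4F1 in the authors' deposited tables, at log2 changes of -0.91 (SE 0.16) under gemcitabine and -0.99 (SE 0.26) untreated, and implied levels of 5.86, 6.20, 11.7 and 12.3 CPM in the 4 groups in the order given above.

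The tract at the transcription start is the feature that defines this mRNA class, so the bases around the start of members that carry the results below are shown first. Each line gives 20 bases before the RefSeq start and 10 from the start on (GRCh38.p14), 5′ to 3′ on the gene's strand. Capitals mark the unbroken C and T run that begins at a start base C, or the start base alone where there is no such run.
RPL22L1, chr3:170870186-170870215, minus strand: gaccgcgcggccgtagcttcCTCTCTgctc
RPL22, chr1:6199586-6199615, minus strand: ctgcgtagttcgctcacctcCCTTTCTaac
RPS3A, chr4:151099608-151099637, plus strand: tcgcgcgactcccacttccgCCCTTTTggc
RPL17, chr18:49492456-49492485, minus strand: ctcttcctctttccctaagcAgcctgaggt
RPL12, chr9:127451397-127451426, minus strand: cttgtccgcgcgatttccggCCTCTCggct
RPL7A, chr9:133348198-133348227, plus strand: attacccacaattccctttcCTTTCTCTCT
RPS27, chr1:153990742-153990771, plus strand: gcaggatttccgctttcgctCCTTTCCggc
RPS27L, chr15:63157468-63157497, minus strand: cccggaagttgatgccgagcGcagatcgct
RPL26, chr17:8383184-8383213, minus strand: accggaagcagcgtgtagttCTCTTCCCTT
RPL26L1, first start, chr5:172958709-172958738, plus strand: caggcagtcttccaggggtcGgcgaacgaa
RPL26L1, second start, chr5:172958860-172958889, plus strand: agaggggcggggcggcggccAcaaacccgc

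The run goes on past the window in RPL7A, where it is 16 bases long, and in RPL26, where it is 12. RPS27L and RPL26L1 have no such run at the annotated start, while their parents RPS27 and RPL26 do; RPL22L1 and its parent RPL22 both have one. A RefSeq promoter was matched for 67 of the 85 genes, and in 47 of them (70.1%) the start was a C followed by 4 or more pyrimidines, against 5.14% of 27305 genes. Across windows searched on both strands, from 250 bases before the start to 50 from it on, CCGGAAG, an ETS-type site, was present in 24 of the 67 (35.8%), against 12.2% of all genes. TGACGT, the core of the ATF-type sites that E4F1 binds at the adenoviral promoter, was present in 13 of the 67 (19.4%), against 9.64%. The share with GGGCGG was 58.2%, against 48.3%, and the share with TATAAA 10.4%, against 14%. CACGTG, the E-box read by MYC, was present in 5 of the 67 (7.46%), against 8.77%. These are matches of letters, not measured binding. RPS3A, which fell most of the core genes after the knockdown (below), was among those with the TGACGT word, on the opposite strand within the 250 bases before its start (capitals). Of the other members that fell with the knockdown, RPL22L1, RPL17, RPL26L1, RPL12 and RPS27L have no such word in this window. RPS2 and RPL8, which fell as well, had no promoter entry to search. Of the 13 members with the word, only RPS3A fell with the knockdown in either condition.
RPS3A, chr4:151099392-151099417, plus strand: agacgcctgcACGTCAggccaccgac

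Measured by mean normalized count, 81 of the 85 genes had 50 or more in every table that lists them, and 78 had 1000 or more. The exceptions were RPL3L, RPL10L, RPL39L and RPS10L, all under 10, and RPL10L was listed in 3 of the 4 tables. RPL36A, RPL17 and RPS10 were the lowest of the core genes, at 559 to 735, 830 to 1156 and 1996 to 2290 mean normalized counts. These are the 3 members that share their locus with an annotated readthrough gene (RPL36A-HNRNPH2, RPL17-C18orf32 and RPS10-NUDT3), and the counting mode for shared exons is not given in the sources used here. All members together held 7.46% of normalized counts in shE4F1 cells under gemcitabine, 7.57% in untreated shE4F1 cells, 6.53% in shCTRL cells under gemcitabine and 7.53% in untreated shCTRL cells. The shCTRL gemcitabine group had the lowest share, and the other 3 groups lay between 7.46% and 7.57%. The 2 tables that hold the shCTRL gemcitabine group implied 6.53% and 6.54%, and over 81 members the implied level of a group differed between tables by at most 0.035 on the log2 scale.

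**Figure D1:**
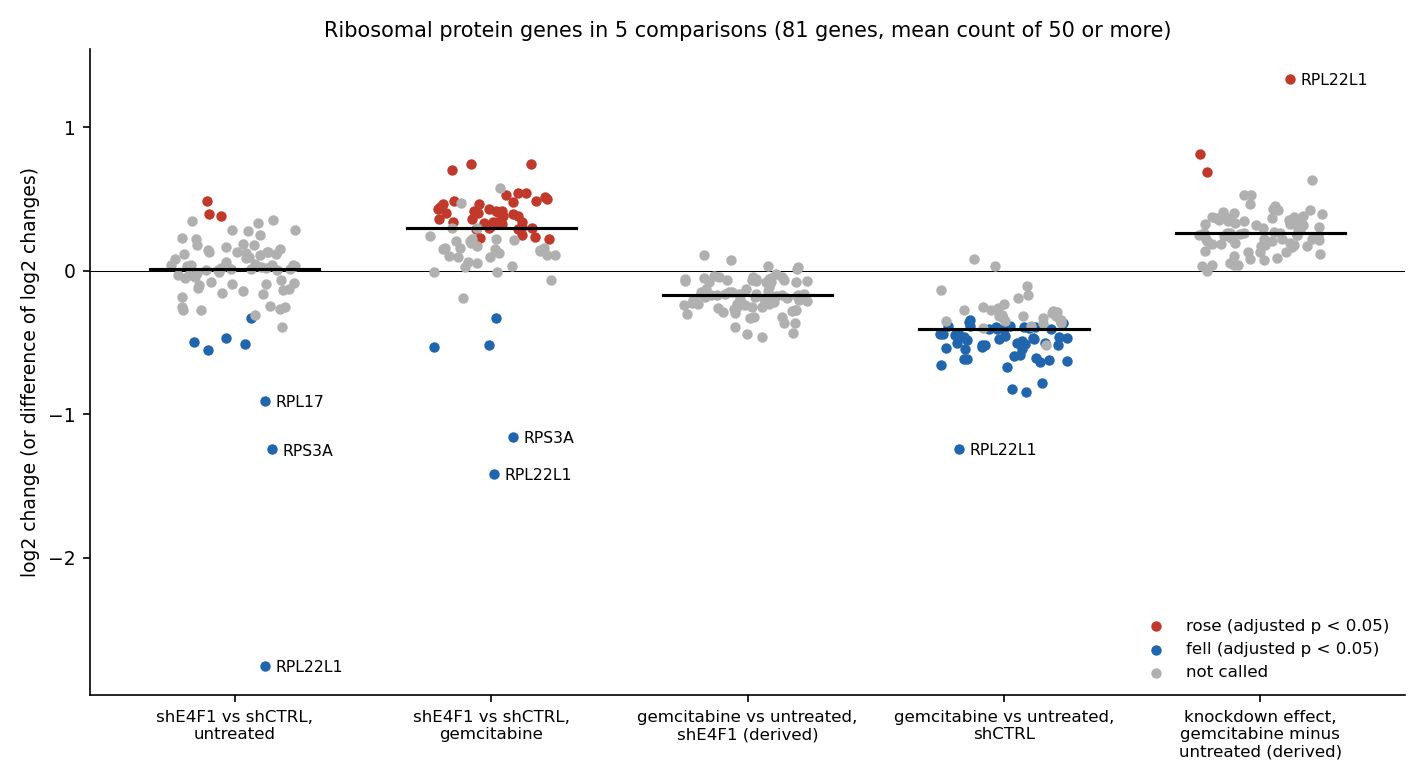
Log2 change of the 81 ribosomal protein genes with a mean count of 50 or more in 5 comparisons, each point 1 gene, black bars the medians; the 2 comparisons marked derived are differences between tables. Points centre near 0 for the untreated knockdown, above 0 for the knockdown under gemcitabine and below 0 for gemcitabine in shCTRL cells. RPL22L1 and RPS3A lie far below the others in both knockdown columns, and RPL17 lies apart in the untreated one only.

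The first comparison asked what E4F1 knockdown did in untreated cells. Most ribosomal protein genes were not called, and the changes were concentrated in a few genes. RPL22L1, a paralog of RPL22 that can take its place in the ribosome, fell most, to 0.148 times its shCTRL level. RPS3A, a 40S protein near the mRNA exit, and RPL17, which lines the peptide exit tunnel, followed. The authors' deposited table gives 82 of them an adjusted p, of which 8 fell (9.76%) and 3 rose (3.66%), while of all 19472 tested genes 36.7% were called, 19.3% lower and 17.5% higher. Among the 6453 genes with a mean of 1000 or more, 27% fell and 22.2% rose, so the members' shares were below those of both backgrounds. The median log2 change over all members was 0.01. With fold changes centred on the median of the genes with a mean of 1000 or more, an alternative added after seeing the data, 5 members rose and 6 fell.

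The group levels of RPL22L1 implied by the tables were 88.9 CPM in shE4F1 cells under gemcitabine, 77.4 in untreated shE4F1 cells, 253 in shCTRL cells under gemcitabine and 523 in untreated shCTRL cells. Both shE4F1 groups thus lay below both shCTRL groups. The untreated knockdown effect in the authors' deposited table was -2.76 (SE 0.17, adjusted p = 6e-57). Its parent RPL22 had implied levels of 595, 652, 453 and 597 CPM in the same order of groups and was not called in untreated cells (0.13, SE 0.14, adjusted p = 0.54).

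RPS3A stood at 207 CPM in shE4F1 cells under gemcitabine, 260 in untreated shE4F1 cells, 493 in shCTRL cells under gemcitabine and 616 in untreated shCTRL cells. In the authors' deposited tables it fell by 1.16 (SE 0.12, adjusted p = 5.1e-20) under gemcitabine and by 1.25 (SE 0.16, adjusted p = 1.2e-13) untreated. Rows named as RPS3A pseudogenes can take up reads of the parent: 7 of 7 such rows were below 0 in both authors' deposited knockdown tables, with medians of -0.57 under gemcitabine and -0.78 untreated. Their counts were near the floor, with median means of 6.43 under gemcitabine and 8.74 untreated, and 0 and 2 of the rows were called. RPL17 stood at 19.4, 17.96, 29.9 and 33.8 CPM over the 4 groups in the same order, and fell by 0.91 (SE 0.15, adjusted p = 2.7e-08) untreated in the authors' deposited table. C18orf32, the other gene of the RPL17 readthrough, was not called in either knockdown table (0.36, SE 0.25, under gemcitabine, and -0.32, SE 0.27, untreated).

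The other genes that fell untreated in the authors' deposited table did so by less. RPL26L1, a paralog of RPL26, changed by -0.55 (SE 0.18), RPL12, a protein at the base of the stalk, by -0.51 (SE 0.13) and RPS2, at the mRNA entry, by -0.49 (SE 0.18). RPL8, near the peptidyl transferase centre, changed by -0.47 (SE 0.19), and RPS27L, a paralog of RPS27, by -0.33 (SE 0.13). Among the 3 that rose were RPL23A, a docking site for factors at the tunnel exit, at 0.49 (SE 0.15), and RPL39, which lines the tunnel, at 0.39 (SE 0.15). All 8 core genes called here, 5 lower and 3 higher, are among the 33 core genes that host an annotated noncoding RNA such as a snoRNA in their introns, and none of the other 44 was called. This split was noticed after the values were seen and was not tested. It was not as sharp elsewhere. With the knockdown under gemcitabine 20 of the 33 rose and 2 fell, and 22 of the other 44 rose and 0 fell. With gemcitabine in shCTRL cells 23 of the 33 and 27 of the other 44 fell on the authors' scaling.

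The next comparison set shE4F1 against shCTRL under gemcitabine, and here ribosomal protein genes as a class stood higher with the knockdown. Of 85 in the authors' deposited table, 43 rose (50.6%) and 5 fell (5.88%), with a median of 0.29. Of all 22433 tested genes 41% were called, 20.3% higher and 20.8% lower. Among the 6986 genes with a mean of 1000 or more, 32.8% rose, 30.2% fell, and the median was 0.03. By subunit, 28 of 46 core 60S genes rose and 1 (RPL17) fell, and 14 of 31 core 40S genes rose and 1 (RPS3A) fell. The changes were small next to those of the single genes above: the quartiles of the core genes were 0.15 and 0.42, with a median SE of 0.10. Recomputed from the other tables that hold both groups, the median was 0.27, but 2 members rose and 3 fell, since the SE of that route counts the untreated shCTRL libraries in both tables. At equal totals 32 of 85 members rose (37.6%) and 6 fell (7.06%), against 26.9% and 35.9% of genes that abundant, and 67 of 77 core genes were above 0.

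The members that rose most in the authors' deposited table included RPS27 (0.74, SE 0.10), a zinc finger protein of the 40S subunit, RPL7A (0.74, SE 0.11), RPL23A (0.70, SE 0.10), RPL27A (0.54, SE 0.13) and RPL13 (0.54, SE 0.13). For RPL7A the implied levels were 999 CPM in shE4F1 cells and 637 in shCTRL cells, both under gemcitabine. For RPS27 they were 852 and 543 in the same 2 groups. The highest level of RPL7A among the 4 groups was in untreated shE4F1 cells (1220 CPM). For RPS27 the 2 shE4F1 groups were level, at 852 CPM under gemcitabine and 853 CPM untreated. Both genes were lowest in shCTRL cells under gemcitabine. RPL22 rose as well (0.48, SE 0.09, adjusted p = 5.3e-07), while its paralog RPL22L1 fell by 1.42 (SE 0.12, adjusted p = 1.4e-32) in the same authors' deposited table.

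By role, the 5S particle genes both rose in the authors' deposited table, RPL11 at 0.48 (SE 0.09) and RPL5 at 0.22 (SE 0.09), RPL5 not at equal totals (adjusted p = 0.26). None of the 3 stalk genes, whose proteins recruit the translational GTPases, was called: RPLP0 stood at 0.19 (SE 0.09), RPLP1 at 0.47 (SE 0.29) and RPLP2 at 0.58 (SE 0.27). RPLP1 and RPLP2 had the largest SEs of the core genes, so values as large as those of called members missed the threshold. Of the 4 proteins around the tunnel exit 3 rose (RPL19, RPL23A and RPL31), and RPL35 did not pass (0.16, SE 0.11). RPSA, also known as the laminin receptor, rose (0.42, SE 0.10). RPS6, the substrate of S6 kinase, was not called (0.16, SE 0.09), nor was the X-linked RPS4X (0.13, SE 0.09). Of 9 genes mutated in Diamond-Blackfan anaemia, RPL5, RPL11 and RPS19 (0.47, SE 0.12) rose and none fell. That is 33.3%, close to the 32.8% of genes whose mean reached 1000.

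The knockdown effects with and without gemcitabine come from tables that share no library. The 5 genes that fell under gemcitabine (RPL22L1, RPS3A, RPL17, RPL26L1 and RPS27L) were all among the 8 that fell untreated, and the 3 that rose untreated were all among the 43 that rose under gemcitabine. No member was called in opposite directions. The same overlap was not counted over all genes, of which 36.7% were called untreated and 41% under gemcitabine. Across the 81 members with a mean of 50 or more the 2 effects had a Pearson r of 0.89 and a Spearman rho of 0.81, or 0.77 and 0.78 without RPL22L1, RPS3A and RPL17. Genes are not independent replicates, and all members share the same libraries, so these coefficients are descriptions only. They were not computed over all genes, so whether members agree more than other genes is not known here. On the authors' scaling the effect was more positive under gemcitabine than untreated in 80 of the 81 genes, the exception being RPS27L (-0.33 in both tables).

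**Figure D2:**
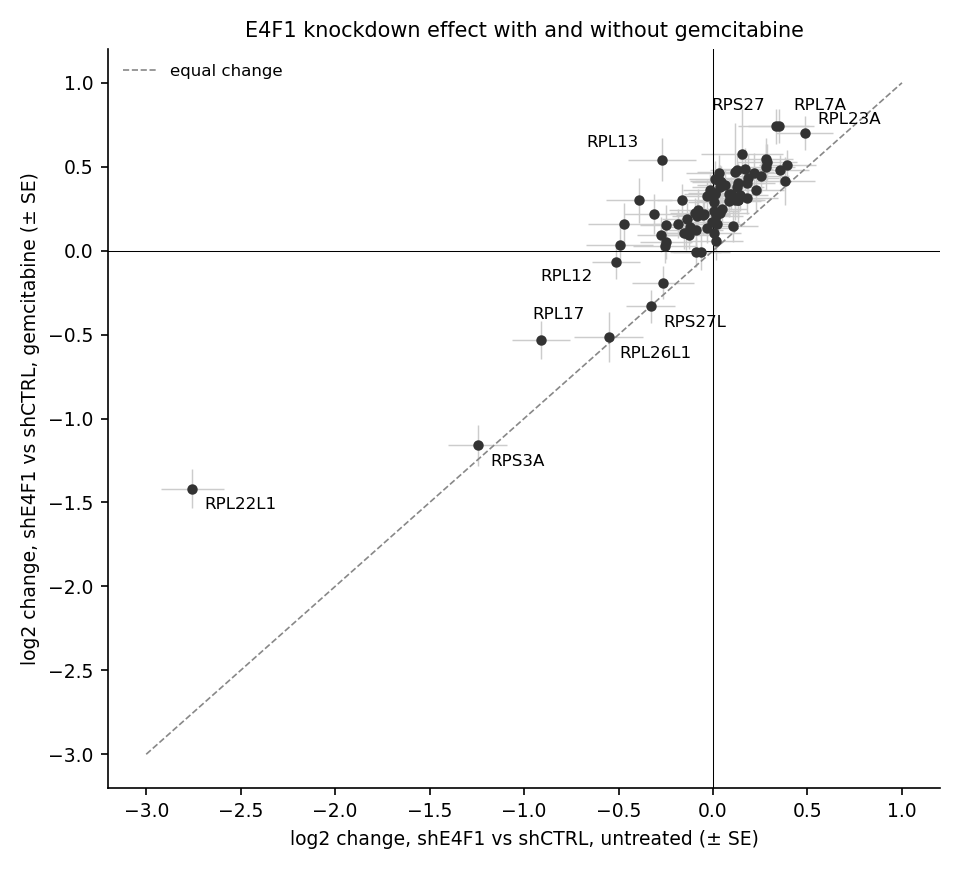
Log2 change of shE4F1 against shCTRL for the 81 genes, untreated on the horizontal and under gemcitabine on the vertical axis, bars ± SE; the dashed line marks equal change. All points but RPS27L lie above the line, RPL22L1 farthest (-1.42 under gemcitabine and -2.76 untreated), while RPS3A (-1.16 and -1.25) and RPL26L1 (-0.52 and -0.55) lie close to it.

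The third comparison asked what gemcitabine did in shCTRL cells, and on the authors' scaling the class was broadly lower with the drug. Of 82 with an adjusted p, 52 fell (63.4%) and 0 rose in the authors' deposited table, with a median over all members of -0.41. All 77 core genes were below 0, from -0.84 (RPL13) to -0.11 (RPS9). The background was 28% of 20002 tested genes called, 13.5% lower and 14.5% higher, and 25.2% lower among the 7013 genes with a mean of 1000 or more. That set as a whole lay at a median of -0.13. Centred on this median, 21 of 85 members fell and 0 rose, against 7.47% of all genes lower and 17.6% higher, and the members' median was -0.28. At equal totals 8 of 85 members fell (9.41%) and 0 rose, close to the 10.7% of genes that abundant. Of all genes 5.26% fell and 22.2% rose there, 73 of 77 core genes were below 0, and the members' median was -0.18, against 0.10 for those abundant genes. The 8 were RPL22L1, RPL13, RPL36A, RPL7A, RPL23, RPL23A, RPL3 and RPL22, while RPS9 stood at 0.12 (SE 0.16) and RPS20 at 0.09 (SE 0.14). The number of falls thus rests on the scaling. These 3 shCTRL gemcitabine libraries are the same in this table and in the knockdown table under gemcitabine, so the falls here and the rises there are not 2 separate observations. Whether 1 of them sets the class apart was not tested, since no count column can be tied to a library.

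Both subunits took part: 32 of 46 core 60S genes fell (median -0.46) and 18 of 31 core 40S genes fell (median -0.39). After RPL22L1, the authors' deposited table showed the lowest values for RPL13 (-0.84, SE 0.19), RPL36A (-0.82, SE 0.15), RPL7A (-0.79, SE 0.21), RPL8 (-0.67, SE 0.20) and RPL23 (-0.66, SE 0.16). RPL22L1 fell by 1.24 (SE 0.16, adjusted p = 1.4e-13) and its parent RPL22 by 0.61 (SE 0.14, adjusted p = 0.00014). Of the 5S particle genes RPL5 fell (-0.53, SE 0.13), and RPL11 did not pass (-0.26, SE 0.16). RPLP0 (-0.45, SE 0.14) and RPLP2 (-0.61, SE 0.23) fell, as did RPSA (-0.59, SE 0.15) and RPS6 (-0.47, SE 0.14), and RPLP1 (-0.52, SE 0.22) and RPS4X (-0.35, SE 0.15) were not called. The falls of RPL8, RPL5, RPLP0, RPLP2, RPSA and RPS6 did not pass at equal totals.

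The paralogs differed from each other in this table. RPL7L1, a nucleolar paralog of RPL7 involved in subunit assembly, fell (-0.36, SE 0.14), as did RPL7 (-0.43, SE 0.13). RPS27L (0.03, SE 0.14) and RPL26L1 (0.08, SE 0.17) were not called, while their parents RPS27 (-0.52, SE 0.16) and RPL26 (-0.35, SE 0.14) fell in the same authors' deposited table. The fall of RPL26 is borderline (adjusted p = 0.04, and 0.0506 after centring on the median of all genes). The difference between a paralog and its parent was not tested. The falls of RPL7L1, RPL7, RPS27 and RPL26 did not pass at equal totals. The parents RPL3 (-0.62, SE 0.14) fell, and RPL10 (-0.38, SE 0.17) and RPL39 (-0.32, SE 0.15) did not pass; their paralogs RPL3L, RPL10L and RPL39L had no adjusted p here.

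**Figure D3:**
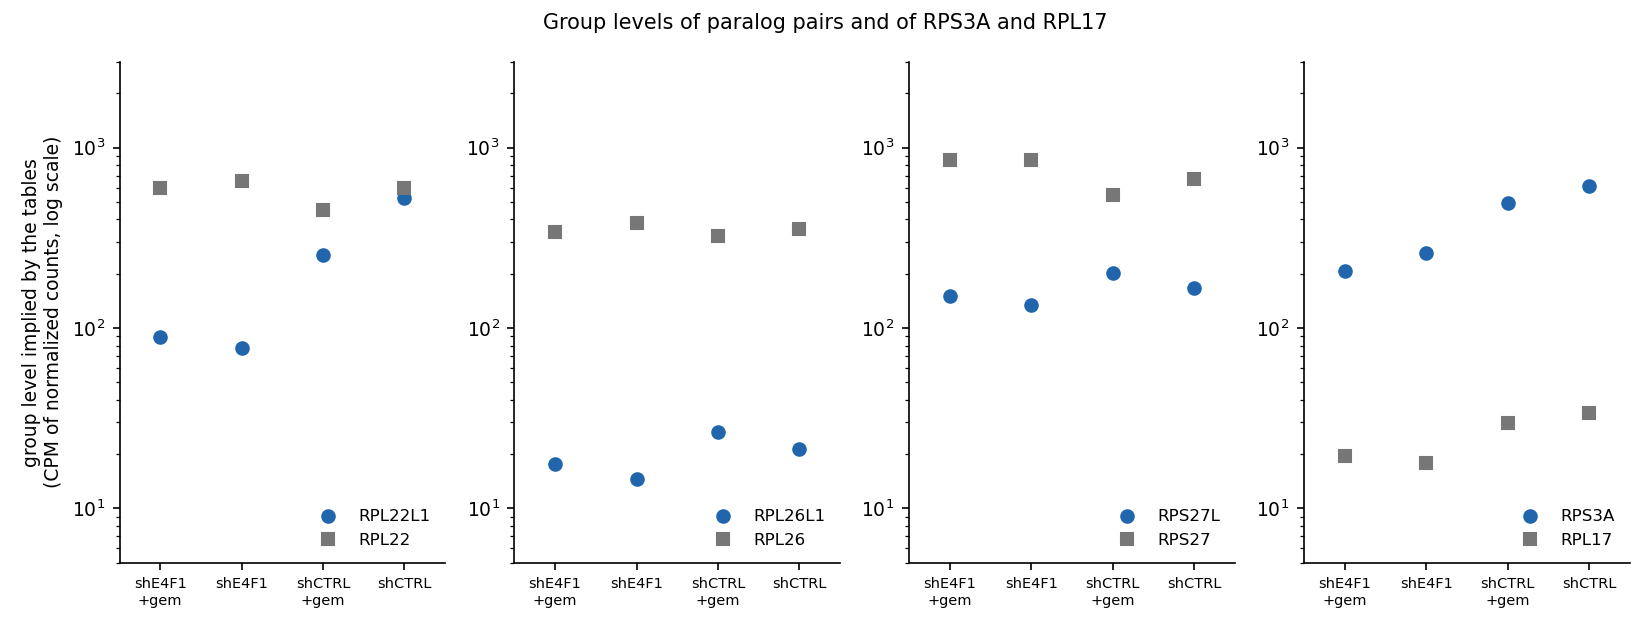
Group levels implied by the 2 knockdown tables, in CPM of normalized counts on a log axis, for 3 paralogs with their parents and for RPS3A and RPL17; the levels are not divided by gene length, so heights compare groups within a gene and not genes. RPL22L1 lies at 88.9, 77.4, 253 and 523 from left to right, and RPS3A and RPL17 are likewise lower in both shE4F1 groups than in both shCTRL groups.

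In shE4F1 cells the gemcitabine effect was derived from the table of shE4F1 under gemcitabine against untreated shCTRL and the untreated knockdown table, which share the untreated shCTRL libraries; the SE therefore comes out too large. None of 84 members passed the two-sided normal test after Benjamini-Hochberg adjustment, at a background of 1.11% of 21080 genes called (0.925% higher and 0.185% lower), and the lowest adjusted p was 0.752. At an unadjusted p under 0.05, 2 members were lower and 0 higher, against 2.2% of all genes lower and 4.2% higher. The median was -0.17, and 75 of 77 core genes were below 0, the exceptions being RPS15 (0.02, SE 0.26) and RPS20 (0.03, SE 0.21). At equal totals 48 of the 77 were below 0 and 29 above, with a median over all members of -0.01, so the direction of the class in these cells rests on the scaling. With the SE of the shCTRL table in its place, 1 member fell. RPL22L1 stood at 0.07 (SE 0.23), RPL13 at -0.08 (SE 0.27), RPL7A at -0.44 (SE 0.29) and RPS3A at -0.46 (SE 0.23).

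**Figure D4:**
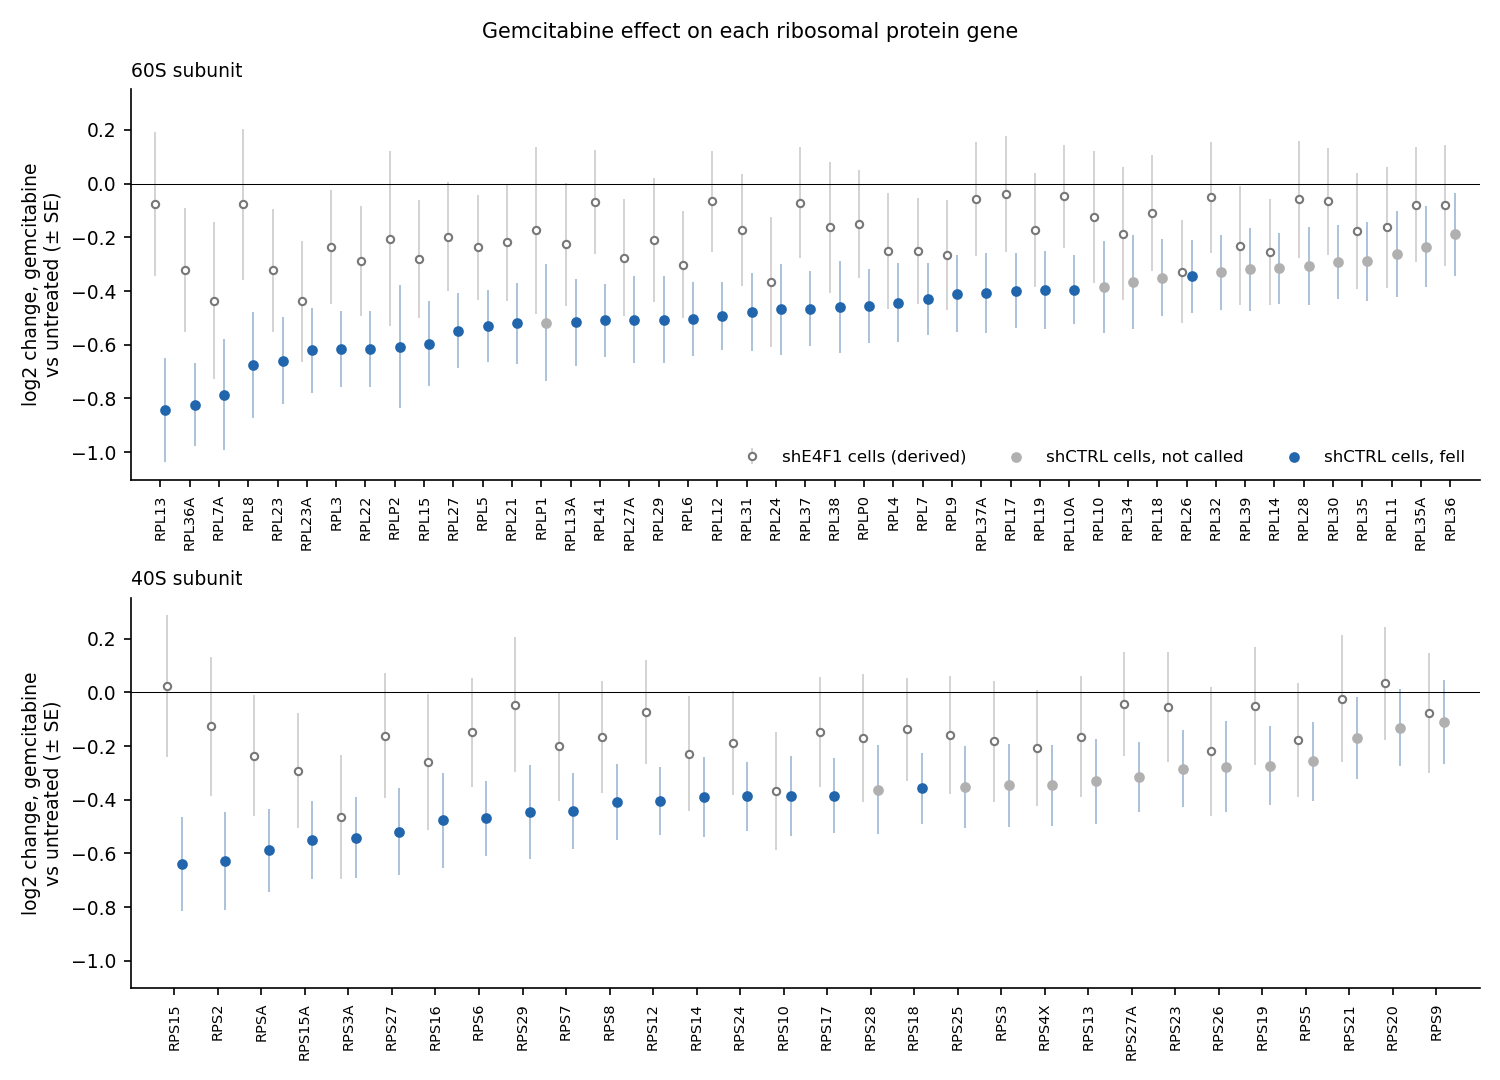
Log2 change with gemcitabine for 75 of the 77 core genes, 60S above and 40S below, ordered by the value in shCTRL cells; open circles are shE4F1 cells, filled circles shCTRL cells, bars ± SE. On the authors' scaling all 75 filled circles and 73 of 75 open circles are below 0, and the SEs in shE4F1 cells are the wider ones because of how that effect was derived.

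Whether the knockdown effect itself differed between gemcitabine and no treatment was tested as the difference of the 2 knockdown tables, which is also the difference between the gemcitabine effects of the 2 hairpins. It was above 0 in 77 of 77 core genes, from 0.03 to 0.81 (RPL13), with a median over all members of 0.26. Of the 6779 genes with a mean of 1000 or more 63.1% were above 0, with a median of 0.09, and of the 78 members in that range 98.7% were. Single genes rarely passed: by the two-sided normal test with Benjamini-Hochberg adjustment 3 of 84 members rose and 0 fell (3.57% and 0%), while of 20923 genes 5.43% were called, 2.81% higher and 2.63% lower (1.74% and 3.68% after centring on genes with a mean of 1000 or more, when 2 members rose). At equal totals 70 of 77 core genes were above 0, the median over all members was 0.17, against 0.0040 for those abundant genes, and 2 members rose. At an unadjusted p under 0.05, 24 members were higher and 0 lower, against 9.49% of all genes higher and 7.1% lower.

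The 3 that passed were RPL22L1 at 1.34 (SE 0.20, adjusted p = 3.2e-08), RPL13 at 0.81 (SE 0.22, adjusted p = 0.0093) and RPS15 at 0.69 (SE 0.22, adjusted p = 0.036). The implied level of RPL22L1 was 88.9 CPM under gemcitabine, against 77.4 untreated, in shE4F1 cells, and 253 under gemcitabine, against 523 untreated, in shCTRL cells. RPL13, a 60S protein, stood at 438 under gemcitabine, against 417 untreated, in shE4F1 cells, and at 321, against 502, in shCTRL cells. In shE4F1 cells the CPM levels put RPL13 slightly higher under gemcitabine, at 0.08 (SE 0.27) on the log2 scale, and the authors' scaling slightly lower (-0.08). RPS15, at the decoding site of the 40S head, stood at 154, against 137, in shE4F1 cells and at 133, against 179, in shCTRL cells. The call of RPS15 is borderline: its adjusted p was 0.0566 after centring on the median of all genes, 0.0524 from the other 3 tables, 0.0901 at equal totals and 0.0934 after centring on genes with a mean of 1000 or more.

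Set against untreated shCTRL cells, shE4F1 cells under gemcitabine had 10 of 82 members lower and 0 higher in the authors' deposited table, at a background of 32.2% of 19724 genes called (16.3% lower and 15.8% higher), and a median of -0.16. At equal totals 6 were lower (7.06%), against 18.2% of genes whose mean reached 1000, and the members' median was -0.0047. After centring on the genes with a mean of 1000 or more 6 members were lower, against 10.8% of all genes lower and 18.3% higher. RPL22L1 stood at 0.156 times the untreated shCTRL level, RPS3A at 0.306 times and RPL17 at 0.518 times. RPL36A (-0.63, SE 0.17), RPS2 (-0.62, SE 0.19) and RPL12 (-0.58, SE 0.14) were the next lowest. This table shares its untreated shCTRL libraries with the untreated knockdown table and with the gemcitabine table of shCTRL cells.

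Core genes with and without a pyrimidine run at the annotated start are set side by side here; the difference between them was not tested. Of core genes with a promoter entry, 27 of 46 with a run and 12 of 16 without one fell with gemcitabine in shCTRL cells, with medians of -0.40 and -0.43 in the authors' deposited table. Under gemcitabine, 26 of 46 with a run and 7 of 16 without one rose with the knockdown, with medians of 0.33 and 0.23. The share of members whose annotated start is not the start used in SUM159 cells was not tested.

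Other mRNAs with a TOP tract, which encode elongation factors, initiation factor subunits and RNA-binding proteins, moved in the same directions as the ribosomal protein genes. Of 16 measured, 12 rose (75%) and 0 fell with the knockdown under gemcitabine (median 0.39), against 32.8% and 30.2% of genes whose mean reached 1000. With gemcitabine in shCTRL cells 14 fell (87.5%) and 0 rose (median -0.69), against 25.2% and 11.7%. At equal totals 10 rose and 1 (NPM1) fell with the knockdown under gemcitabine, and 9 fell and 0 rose with the drug. In the authors' deposited table of gemcitabine in shCTRL cells the largest falls were those of HNRNPA1 (-1.27, SE 0.15), EIF3E (-1.07, SE 0.13) and NPM1 (-0.97, SE 0.14). With the knockdown under gemcitabine, PABPC1 (0.61, SE 0.09), TPT1 (0.60, SE 0.12) and EEF1A1 (0.55, SE 0.10) rose most. The difference between the knockdown effects passed in 6 of the 16 (BTF3, EEF1A1, GAS5, HNRNPA1, NPM1 and PABPC1), all positive, and in 2 of them (BTF3 and GAS5) at equal totals. In untreated cells TPT1 rose and NPM1 and GAS5, a noncoding snoRNA host with a TOP tract, fell.

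Of 29 translation initiation factors, 14 fell and 2 rose with the knockdown under gemcitabine (median -0.20), and 17 fell and 0 rose in untreated cells (median -0.45). That is 48.3% and 58.6% lower, against 30.2% and 27% of genes whose mean reached 1000. The 29 leave out EIF3E, EIF3F, EIF3H and EIF4B, which were counted with the TOP mRNAs. Of these, EIF3E (0.49, SE 0.09), EIF3F (0.35, SE 0.11) and EIF4B (0.50, SE 0.11) rose with the knockdown under gemcitabine, and EIF3H was not called (0.06, SE 0.09). The largest falls untreated in the authors' deposited table were EIF4G2 (-1.91, SE 0.14), which drives non-canonical initiation, EIF6 (-1.54, SE 0.14), which keeps 60S subunits from joining prematurely, and EIF1 (-1.31, SE 0.19), which guards start codon choice. With gemcitabine in shCTRL cells 10 of the 29 fell (34.5%) and 1 rose (3.45%), against 25.2% and 11.7% of genes that abundant. At equal totals 6 fell (20.7%) and 5 rose (17.2%), against 10.7% and 24.2%. On the authors' scaling the falls were led by the helicases EIF4A1 (-1.38, SE 0.25) and EIF4A2 (-1.36, SE 0.13). EIF4A1 held far fewer counts, with means of 222 in the untreated knockdown comparison and 124 in the one under gemcitabine. Those of EIF4A2 were 24617 and 14179. Of 13 dedicated chaperones and importers of ribosomal proteins, 6 fell (46.2%) and 0 rose with the knockdown untreated. The shares were 27% and 22.2% among genes whose mean reached 1000. At equal totals 5 of the 13 fell (38.5%), against 26.6%. PDCD2L fell most (-1.49, SE 0.22), followed by IPO9 (-0.87, SE 0.16) and HEATR3 (-0.74, SE 0.15), which is needed for nuclear import of RPL5. With the knockdown under gemcitabine 6 of the 13 fell (46.2%) and 4 rose (30.8%), or 6 and 2 at equal totals. Among genes whose mean reached 1000 the shares were 30.2% and 32.8%, or 35.9% and 26.9% at equal totals.

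**Figure D5:**
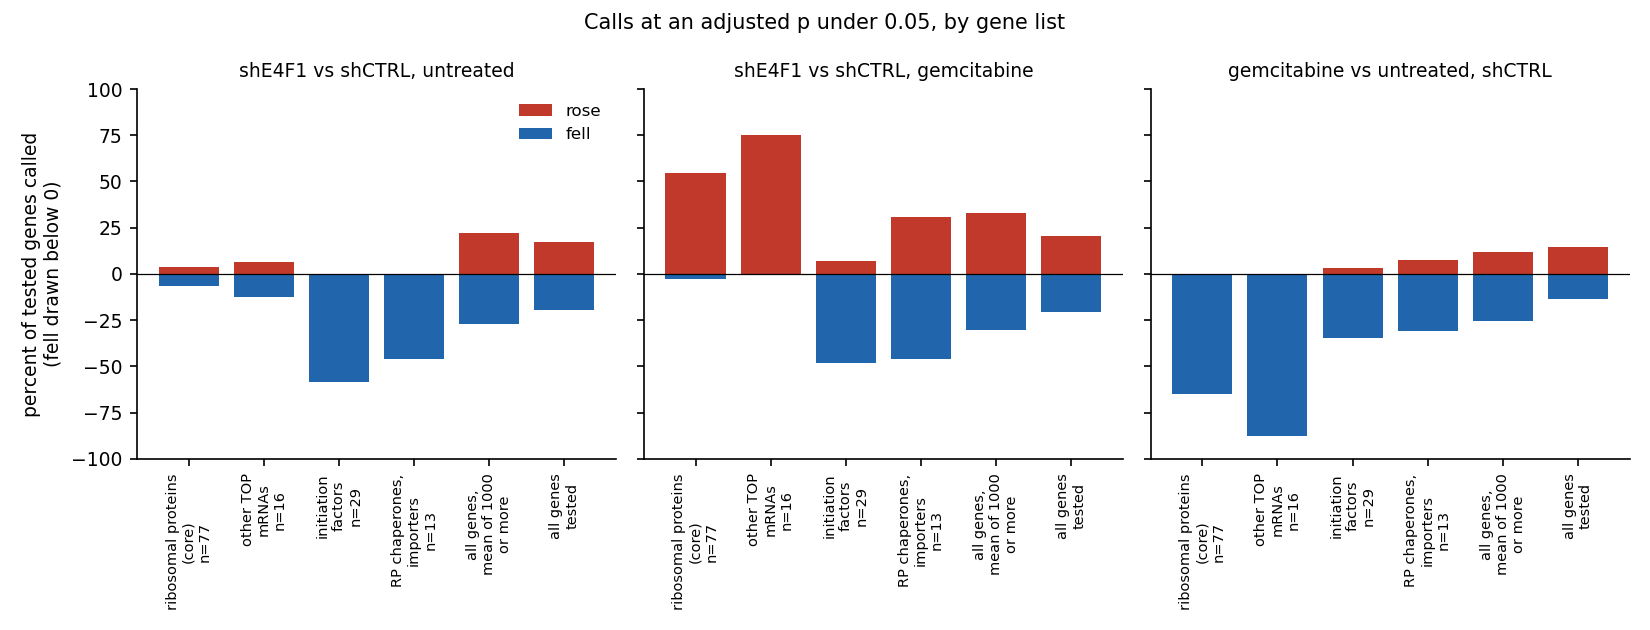
Percent of tested genes that rose (above 0) and fell (below 0) in the 3 deposited comparisons named over the panels, for core ribosomal protein genes, 3 related lists, all genes, and those of them with a mean of 1000 or more. On the authors' scaling, which is drawn, ribosomal protein genes and other TOP mRNAs have the largest share of rises in the middle panel. They also have the largest share of falls in the right panel, and the initiation factors have it on the left. The initiation factors drawn leave out EIF3E, EIF3F, EIF3H and EIF4B, which are drawn with the other TOP mRNAs. At equal totals 9.41% of all members and 56.2% of other TOP mRNAs fell in the right comparison. There 20.7% of initiation factors and 10.7% of genes with a mean of 1000 or more fell.

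Of 12 measured regulators of these mRNAs, 6 rose (50%) and 4 fell (33.3%) with the knockdown under gemcitabine, against 32.8% and 30.2% of genes whose mean reached 1000, and 3 rose (25%) and 4 fell (33.3%) untreated, against 22.2% and 27%. At equal totals 4 rose and 4 fell under gemcitabine. EIF4EBP2, an inhibitor of cap-dependent initiation, rose by 2.04 (SE 0.17) with the knockdown untreated in the authors' deposited table, and its relative EIF4EBP1 fell by 1.83 (SE 0.24). With the knockdown under gemcitabine EIF4EBP2 rose as well (1.83, SE 0.09), but EIF4EBP1 was not called (-0.07, SE 0.15). The difference between the 2 knockdown effects was 1.76 (SE 0.28) for EIF4EBP1. LARP1, which binds TOP tracts, rose by 0.77 (SE 0.09) with the knockdown under gemcitabine, was not called with it untreated (0.19, SE 0.13), and fell by 0.76 (SE 0.13) with gemcitabine in shCTRL cells. MYC, an activator of ribosomal protein gene transcription, rose by 0.34 (SE 0.12) with the knockdown under gemcitabine, though not at equal totals (adjusted p = 0.068), and fell by 0.74 (SE 0.13) with gemcitabine in shCTRL cells. Of 7 measured genes of ribosomal stress signalling, MDM2 (-0.58, SE 0.14) and ZNF598 (-1.25, SE 0.24) fell and EIF2AK4 (0.59, SE 0.14) rose with the knockdown untreated. That is 28.6% lower and 14.3% higher, against 27% and 22.2% of genes whose mean reached 1000. With the knockdown under gemcitabine 4 of the 7 fell (57.1%), MDM2 among them (-1.04, SE 0.11), and 2 rose (28.6%), against 30.2% and 32.8%.

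A few ribosomal proteins have symbols that the rule does not match. FAU, which releases RPS30, and RPL36AL were not called in any of the 4 tables. RACK1, a signalling scaffold on the 40S head, fell with gemcitabine in shCTRL cells (-0.43, SE 0.13), though not at equal totals (adjusted p = 0.27).

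The 3′ untranslated regions were searched for AAGTGCT, a word of 7 bases taken up because earlier results on these data pointed to it, so its counts support nothing. In the principal transcripts of GENCODE 29 it was present in 15 of 84 members (17.9%), against 19.4% of 14615 genes. Among the 5 members that fell with the knockdown in both conditions it was present in RPL22L1, RPS3A and RPS27L. A site in each of the first 2 of these genes is shown with 10 bases on each side and the word in capitals (GRCh38, transcript strand).
RPL22L1, chr3:170865754-170865780, minus strand: atgtaatctcAAGTGCTtagaacagtt
RPS3A, chr4:151104613-151104639, plus strand: ggcaaataaaAAGTGCTatttgtgatg

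By GENCODE 29 the 85 genes lie on 21 chromosomes, 12 of them on chromosome 19 and 9 on chromosome 3, so members are for the most part not neighbours.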

How the data were processed

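Polyadenylated RNA of SUM159 cells was read single-end at 50 bases from stranded libraries, per the labels' protocols. The submitters' processing notes name, without roles, TopHat2 2.1.1, Bowtie2 2.2.9, HTSeq 0.9.0, DESeq2 1.14.1, R 3.4.0, FastQC and bcl2fastq, and the build GRCh38.p7. The sources used here do not give the annotation release, strand setting, filters or design formula. Per the file headers, each of the 4 deposited tables holds a mean of normalized counts (a signal), a log2 fold change with its SE, a Wald score, and a p-value with its adjusted p-value, computed by the authors over all genes. A missing adjusted p-value was left missing. The 12 columns of the count table match no sample label and were not used, so depth per library is unknown here, no replicate could be left out, and precision is given by the SE. Reads from pseudogenes, readthrough genes and paralogs may have been split in ways not known here.

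The members and the gene lists were chosen with earlier results of these data known. From the tables, 2 comparisons were derived by subtraction, with SEs from summed variances, a two-sided normal test and Benjamini-Hochberg adjustment, in Python 3.11.15 (scipy 1.17.1, pandas 2.3.3, numpy 2.4.6); the code was tested on simulated data. Figures were drawn with matplotlib 3.10.9. Group levels were solved from a table's mean and fold change, with both groups weighted equally. Named were, per comparison, the 6 largest changes in each direction among called members, the paralogs and their parents, the stalk and 5S particle genes, RPSA, RPS6 and RPS4X, and up to 3 called genes a direction in the related lists; other genes named were chosen after their values were seen. Alternatives were other thresholds, centring on the median of all genes or of genes with a mean of 1000 or more, equal summed counts of the groups, no independent filtering, a minimum mean of 50, subunits apart, and the same contrast from the other tables. Promoter sequences are from RefSeq (GRCh38.p14), matched by symbol, and untranslated regions from GENCODE 29 (GRCh38). The results for a few items are not reported here.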

Additional observations from a re-analysis of the deposited data

Results flagged for a closer look

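The effect of E4F1 knockdown differed between gemcitabine and no treatment in 3 of 84 ribosomal protein genes (3.57%), by the two-sided normal test of the difference with Benjamini-Hochberg adjustment over 20923 genes. Of all those genes 5.43% were called, so the members' share was below the background. For RPL22L1 the difference was 1.34 (SE 0.20, adjusted p = 3.2e-08), from knockdown effects of -1.42 under gemcitabine and -2.76 untreated. For RPL13 it was 0.81 (SE 0.22, adjusted p = 0.0093), from effects of 0.54 and -0.27. For RPS15 it was 0.69 (SE 0.22, adjusted p = 0.036), from effects of 0.30 and -0.39, neither of which passed in its own table. The call of RPS15 is borderline and was lost under several alternatives given above. The rule of a single sample far from the others in its group could not be applied, since no values of single libraries were used.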

How the results depend on the processing

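No called result changed direction under any alternative, and 1 median over the members moved by more than the median SE. Across the summary results 116 values stayed near the main value, 10 were lower counts and 5 higher counts. At equal totals of the groups, chosen after seeing the data, 8 members fell with gemcitabine in shCTRL cells (median -0.18) and 6 in shE4F1 cells under gemcitabine against untreated shCTRL cells. At an adjusted p under 0.01, 1 member rose and 5 fell with the knockdown untreated, 32 fell with gemcitabine in shCTRL cells, and 6 fell in shE4F1 cells under gemcitabine against untreated shCTRL cells. At an adjusted p under 0.1, 5 rose with the knockdown untreated, 19 fell in the last comparison, and 6 had a positive difference between knockdown effects. Centring on genes with a mean of 1000 or more, chosen after seeing the data, moved the median of all genes by over 0.1 in the 2 comparisons of gemcitabine-treated with untreated shCTRL cells (-0.13 for shCTRL and -0.12 for shE4F1 cells under gemcitabine): 21 and 6 members then fell, and 5 rose with the knockdown untreated. From the other tables, 2 rose and 3 fell with the knockdown under gemcitabine, since that SE counts shared libraries in both tables. With the SE of the shCTRL table, 1 member fell with gemcitabine in shE4F1 cells. Of the single genes named, 350 values stayed on their side of the threshold and 56 lost their call: 11 at an adjusted p under 0.01, 11 with the centring on abundant genes, 16 at equal totals, 13 with the knockdown under gemcitabine taken from the other tables, and the rest under centring on all genes, no filtering, and the difference between knockdown effects taken from the other tables.

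No paired analysis was possible because the count columns carry no replicate number that can be tied to a sample; leaving out single replicates was not run for the same reason. Depth limits the 4 members with means under 10, which carry the widest SEs.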
